A study of Mus musculus and Homo sapiens with 9 samples.

Results

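The 48 genes described here encode proteins of homologous recombination and of the Fanconi anemia pathway. They were chosen as a named list, by gene symbol in the human annotation and by the same symbol, ignoring case, in the mouse annotation. All 48 were found among the 20033 human and the 21938 mouse protein-coding genes. Homologous recombination repairs broken chromosomes by copying an intact sister sequence: the broken end is resected, it pairs with the intact copy, and the joined molecules are later dissolved or cut. The Fanconi core complex attaches ubiquitin to FANCD2 and FANCI where a DNA crosslink blocks a replication fork, and the BRCA proteins act downstream of it. Many of these proteins also act at R-loops, structures in which an RNA pairs with one DNA strand and displaces the other. What follows concerns R-loop signal at these genes themselves, which says nothing about the amount or activity of their proteins.

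The data were 9 peak lists from CUT&Tag, an assay in which an antibody tethers a transposase that cuts and tags nearby DNA. Mouse embryonic fibroblasts (MEFs) gave 5 lists, and HEK293 cells, a human embryonic kidney line, gave 4. In MEFs the antibody S9.6, which recognizes DNA-RNA hybrids, was applied to Mcm8 wildtype (WT) cells, Mcm8 knockout (KO) cells, control cells with a control shRNA (shControl), and cells with a Ddx5 knockdown (shDdx5); a wildtype sample without primary antibody was the background. In HEK293 cells, all labelled wildtype, the lists came from mouse IgG (the background), from anti-FLAG antibody after transfection of a FLAG-MCM8 plasmid, from S9.6, and from S9.6 after transfection of an RNH1 plasmid, which encodes RNase H1, the enzyme that digests the RNA of such hybrids. Each group was 1 library, so no difference has a replicate check and none was tested for significance. The MEFs came from embryo trunks and were immortalized, and the knockdown was made with an adenovirus, so each group stands for one culture and not for a tissue or an animal.

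The lists held 4314 (no antibody) to 12259 (shControl) peaks in MEFs and 12497 (RNH1) to 17178 (IgG) in HEK293 cells. The weakest peaks had a -log10 p of 3.0 to 3.01 in MEFs and of 5.0 to 5.02 in HEK293 cells, so that MEF and HEK293 counts are given side by side and no size is read from the difference between them. The background that the peak scores imply was 5729 to 7001 fragments per Mb of genome in the 4 MEF S9.6 lists, 720 without antibody and 8314 to 11050 in HEK293 cells. Promoter peaks lay at 2 to 4 of 14 fibroblast markers in the MEF S9.6 lists, and at 0 of 4 epithelial markers. These counts neither identify nor contradict the labelled cells, since a peak is no measure of expression. In 2 libraries the plasmid-like signal went against the labels. The strongest peak of the S9.6 list lay over the MCM8 gene (fold enrichment 19.7), where the FLAG-MCM8 list also had its strongest peak (21.6) and the RNH1 list its 4th (17.7), although the S9.6 label names no plasmid and the RNH1 label no MCM8 plasmid. Over RNASEH1, the gene of RNase H1, the library labelled RNH1 had 1 peak of 4.31, below the 5.3 of the S9.6 list, so these peaks gave no check that the RNH1 plasmid was present. RNH1 below means the library labelled so, and every S9.6 to RNH1 difference rests on that label. Inside the shControl and shDdx5 files the peak names read shD1 and shD2, which do not show which is the control, so the direction of every difference between this pair rests on the labels alone. No member count includes the MCM8 peak. In MEFs the targeted genes gave no check of the labels: Mcm8 had a peak in the KO list (fold 3.31) and none in the WT list, and Ddx5 had one in both the shControl (4.02) and the shDdx5 list (3.69).

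A gene was counted as having a promoter peak when the midpoint of a peak lay within 1 kb of any of its annotated transcription start sites. The DNA under the peaks found most widely is shown first. Of the 48 members, 7 had a promoter peak in all 4 MEF S9.6 lists. The lines below give for each of them up to 120 bases that all 4 peaks share and that lie in no annotated exon (mm10, read 5′ to 3′ on the strand of the gene). Capitals mark a match to one of the motifs searched, here the CCAAT box or the ETS core CCGGAAG on either strand.
Fancc (chr13:63431256-63431287, minus strand): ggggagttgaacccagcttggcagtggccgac
Xrcc3 (chr12:111814004-111814123, minus strand): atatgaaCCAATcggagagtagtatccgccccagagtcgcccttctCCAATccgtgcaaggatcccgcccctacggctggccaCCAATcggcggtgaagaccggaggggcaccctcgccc
Rad52 (chr6:119903000-119903086, plus strand): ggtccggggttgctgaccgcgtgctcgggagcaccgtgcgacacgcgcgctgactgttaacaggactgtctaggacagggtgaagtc
Atm (chr9:53536784-53536903, minus strand): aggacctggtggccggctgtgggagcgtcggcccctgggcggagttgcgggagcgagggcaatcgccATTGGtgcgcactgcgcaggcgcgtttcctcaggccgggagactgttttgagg
Slx4 (chr16:4003771-4003890, minus strand): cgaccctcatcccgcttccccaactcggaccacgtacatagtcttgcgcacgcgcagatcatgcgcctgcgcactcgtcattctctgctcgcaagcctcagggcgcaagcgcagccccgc
Gen1 (chr12:11265803-11265885, minus strand): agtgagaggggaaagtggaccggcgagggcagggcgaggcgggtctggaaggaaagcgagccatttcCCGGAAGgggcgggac
Rmi1 (chr13:58402212-58402247, plus strand): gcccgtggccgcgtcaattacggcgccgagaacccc

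In HEK293 cells the FLAG-MCM8 and S9.6 promoter peaks shared bases at 5 members. The shared, exon-free stretches of at least 30 bases at 4 of them were (hg38, strand of the gene, no motif match):
RAD54L (chr1:46247305-46247368, plus strand): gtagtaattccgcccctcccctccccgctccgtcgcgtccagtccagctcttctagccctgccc
BLM (chr15:90717524-90717643, plus strand): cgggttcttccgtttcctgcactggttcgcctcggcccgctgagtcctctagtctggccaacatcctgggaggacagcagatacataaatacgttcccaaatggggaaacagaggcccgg
RECQL (chr12:21501949-21502068, minus strand): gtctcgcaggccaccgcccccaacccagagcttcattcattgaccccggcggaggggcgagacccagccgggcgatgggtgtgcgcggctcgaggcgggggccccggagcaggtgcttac
RMI1 (chr9:83980377-83980463, plus strand): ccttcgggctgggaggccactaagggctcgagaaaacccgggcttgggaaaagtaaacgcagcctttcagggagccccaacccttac

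In the mouse set the GC share of these stretches ran from 63.3% in Xrcc3 to 72.2% in Rmi1, and in the human set from 57.5% in BLM to 72.5% in RECQL. The median over the main-start windows of all genes was 55.7% in mouse and 63.7% in human, so that the human stretches lay on both sides of it. Xrcc3, which encodes a strand exchange factor, held 3 CCAAT boxes in the stretch shown.

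Motifs were also searched at every member, from 250 bases before to 50 after a start site. E2F factors control genes of the S phase, and their core was searched on both strands as TTCCCGC and, in 2 variant forms, as TTGGCGC and also as TTCGCGC. At the most 5′ RefSeq start, 18 of the 36 mouse members found in the RefSeq promoter table (GRCm38) held an E2F match (50%), beside 10.8% of 16522 mouse genes. At the most 5′ protein-coding start in human, the count was 16 of 48 members (33.3%) beside 13.5% of all genes. At the main start of each gene, which is the MANE Select transcript in human and the principal APPRIS transcript in mouse, 24 of 48 human members (50%) and 22 of 48 mouse members (45.8%) held a match, beside 14.8% and 10.3% of all genes. In 11 members both species held one. This count was not made over all genes, nor set against the overlap that the 24 and 22 alone would give, so it is not read as conservation. The 4 of these 11 shown next had the same core and orientation in both species and at least 20 of 29 bases identical. The windows were laid on the match, so the core is among the identical bases by construction. The count was 28 in TOPBP1, 24 in RMI2, and 20 in both BRCA1 and FANCD2. RECQL (18) and RAD52 (12) also had the same core and orientation, with fewer identical bases, and are not shown. Capitals mark the E2F match.
TOPBP1 (chr3:133661931-133661959, minus strand): ccgcgcggttgGCGCGAAagtcggttccc
Topbp1 (chr9:103305187-103305215, plus strand): ccgctcggttgGCGCGAAagtcggttccc
RMI2 (chr16:11345419-11345447, plus strand): tctcaaagttgGCGGGAAagcggaggcgg
Rmi2 (chr16:10835055-10835083, plus strand): cgtcagagttgGCGGGAAagcggtggtgg
FANCD2 (chr3:10026424-10026452, plus strand): cgtcgggcctgGCGGGAAagtcgaaaact
Fancd2 (chr6:113531694-113531722, plus strand): ccgttcttctaGCGGGAAagtcgaaaacg
BRCA1 (chr17:43125394-43125422, minus strand): aacggaaaagcGCGGGAAttacagataaa
Brca1 (chr11:101551882-101551910, minus strand): cgacggagagcGCGGGAAttttagataga

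The other motifs also appeared more often in members than over all genes. At the main start the ETS core CCGGAAG was found in 27.1% of human and 25.0% of mouse members, beside 14.1% and 11.2% of all genes. The NRF1 core GCATGCGC was found in 10.4% and 12.5%, beside 4.29% and 3.75%. The CCAAT box, which may overlap other motifs, was found in 43.8% and 56.2%, beside 36.1% and 38.6%. The members' promoters held a median of 26.5 CpG sites in human and 22.5 in mouse, beside 23 and 12 over all genes. A match is a run of letters and not evidence that a factor was bound.

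**Figure D1:**
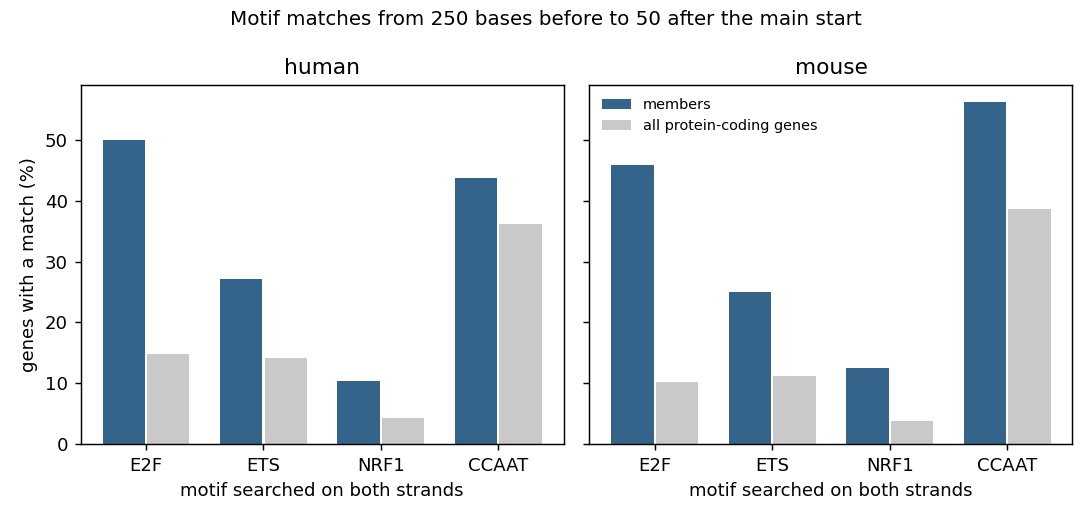
The bars give the percent of genes with a motif match between 250 bases before and 50 after the main start, for the 48 members and for all protein-coding genes, in human (left) and mouse (right). The E2F bars differ most, at 50% against 14.8% in human and 45.8% against 10.3% in mouse.

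The members carried S9.6 promoter peaks more often than protein-coding genes did in general. In HEK293 cells 33 of 48 members had an S9.6 promoter peak (68.8%, 95% Wilson interval 54.7 to 80.1), where the share over all protein-coding genes was 30.1%. The members exceeded the other genes by 38.8 percentage points (95% Newcombe interval 24.7 to 50.1). In the RNH1 list the count was 27 (56.2%, 42.3 to 69.3; background 24.6%). These intervals cover the counting of genes only and not the variation between cultures.

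In the MEF lists the counts were 15 in WT (31.2%, 19.9 to 45.3; background 11.3%), 15 in KO (background 16%), 15 in shControl (background 14.7%) and 17 in shDdx5 (35.4%, 23.4 to 49.6; background 23.1%). The members' share was thus 2.76 times the background in WT and 1.95 times in KO, against 2.12 times in shControl and 1.53 times in shDdx5. The same ratio was 3.37 in the no-antibody list, from 2 members, and 1.86 in the IgG list, from 5. In both pairs the background rose with the perturbation, while the members' count stayed at 15 or went from 15 to 17. This depended on the peak threshold. With a fold of at least 4 the members numbered 4 in WT and 8 in KO, and the ratio to the background was then lower in WT (1.86) than in KO (2.38), while for 6 members in shControl and 10 in shDdx5 it was 2.24 and 1.84. With q of 0.05 or lower there were 11 in WT and 10 in KO (ratios 3.62 and 2.13), and 8 in shControl and 15 in shDdx5 (2.17 and 1.68). The 48 other recombination, Fanconi and checkpoint genes, counted in the same way, went from 11 to 17 of 45 between WT and KO and from 13 to 20 of 45 between shControl and shDdx5. In HEK293 cells 29 of these 48 had an S9.6 and 27 an RNH1 promoter peak.

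The control lists held few members. The no-antibody list had 2 (4.17%; background 1.24%), Brip1 and Wrn, each resting on a pileup of 3 fragments, and neither reached q 0.05. The IgG list had 5 (10.4%; background 5.59%), which were RAD54L, EXO1, FANCC, FANCA and BRIP1. FLAG-MCM8 peaks were found at 8 promoters (16.7%, 8.7 to 29.6; background 12%). The difference of 4.67 percentage points between the members and the other genes had an interval from -3.31 to 17.6, so FLAG-MCM8 was not shown to be more frequent at these genes.

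**Figure D2:**
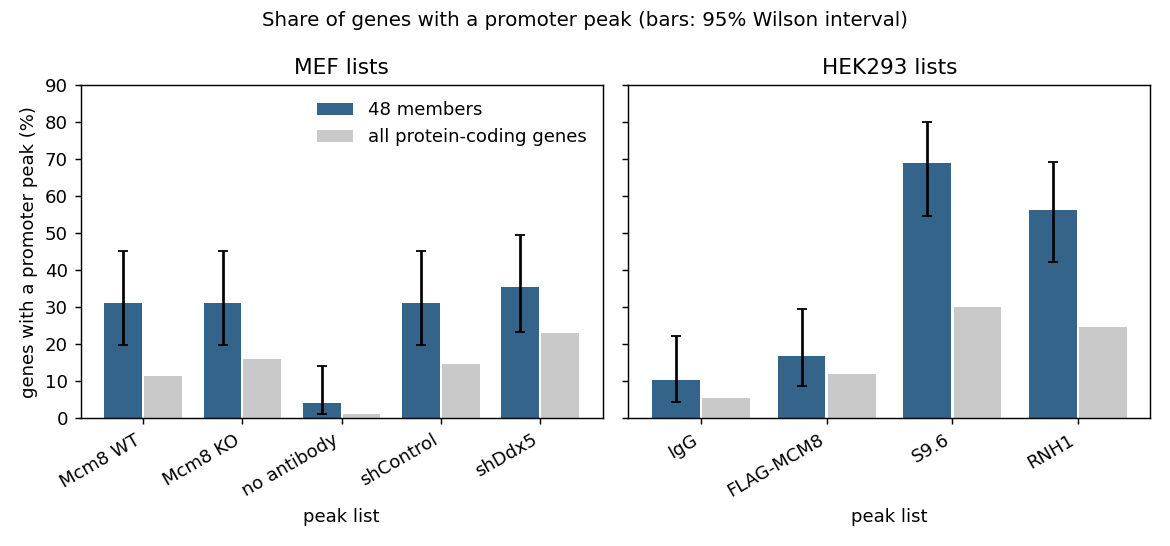
The bars show the percent of genes with a promoter peak in each list, for the 48 members (blue, with 95% Wilson intervals) and for all protein-coding genes (grey). The members reach 68.8% in the HEK293 S9.6 list against 30.1%, and 31.2% in WT and KO MEFs against 11.3% and 16%.

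Some properties of the genes moved with these counts, and their part in the result was not tested. The background took in all annotated protein-coding genes, whether transcribed in these cells or not. The paper cites R-loop levels as associated with transcriptional activity. Transcription was not examined here, so the excess of the members over all genes is not read as particular to this pathway. The members had a median of 15 annotated start sites in human and 6 in mouse, against 5 and 3 over all genes, so that more of the genome counted as promoter. A protein-coding gene starting on the other strand within 1 kb was found for 47.9% of human members against 17.7% of all genes, and for 41.7% of mouse members against 12.3%. Such a pair shares 1 peak between 2 promoters, as with ATM and NPAT, RMI1 and HNRNPK, or GEN1 and SMC6. Among genes with such a neighbour, 60.9% of 23 members and 50.4% of all genes had an S9.6 promoter peak in HEK293 cells. Among genes without one, 76.0% of 25 members and 25.7% of all genes had it. Counting only the main start of each gene, 29 members kept an S9.6 peak in HEK293 cells (60.4%), where 24.8% of all genes had one. Where a gene had at least 15 start sites, the count was 15 of 25 members, and 51.0% of all such genes. Where it had fewer, the count was 18 of 23 members, and 27.2% of all such genes.

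The same split was made in MEFs. Among genes with such a neighbour, 6 of 20 members had a peak in WT and 24.2% of all genes, and in KO 35.0% of the members and 34.2% of all genes. In shControl the shares were 25.0% and 30.8%, and in shDdx5 8 of 20 members beside 46.2%, so that here the members were not above all such genes. Among genes without one, the shares of the 28 members and of all genes were 32.1% and 9.5% in WT and 28.6% and 13.5% in KO. For shControl they were 35.7% and 12.5%, and for shDdx5 32.1% and 19.8%. Where a gene had at least 6 start sites, 13 of 29 members had a peak in WT (20.8% of all such genes) and 12 in KO (27.5%). The counts were 11 in shControl (26.2%) and 13 in shDdx5 (40.6%). Of the 19 members with fewer, 2, 3, 4 and 4 had one in the same order, beside 7.78%, 11.8%, 10.5% and 16.6%.

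The rule admits only peaks within 1 kb of a start, so the distances are a description beside those of all genes. In the HEK293 S9.6 list 31 of 36 member peaks had their midpoint within 300 bp of a start site and 26 touched exon 1, with a median distance of 94 bp. The share within 300 bp was 86.1%, beside 72.9% over all genes, whose median was 153 bp. Distances run to the nearest of any annotated start, and members had more of them. The median was 15 starts in human and 6 in mouse, against 5 and 3 over all genes. The part of this in the distances was not tested. In WT MEFs 13 of 16 lay within 300 bp (81.2%, beside 73.8%), with a median of 142 bp, beside 155 bp. In the other MEF S9.6 lists the members' share within 300 bp was below that of all genes. It was 73.3% beside 74.9% in KO, 64.7% beside 68.5% in shControl and 65.0% beside 74.5% in shDdx5. The medians there were 199 beside 150 bp, 187 beside 178 bp and 147 beside 148 bp. The peaks were of ordinary strength. The median fold enrichment of member peaks was 4.95 in HEK293 S9.6, beside 4.62 over all promoter peaks, and 3.74 in WT MEFs, beside 3.75. Fold enrichment is the fragment pileup at the peak divided by the local background, with 1 added to each.

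**Figure D3:**
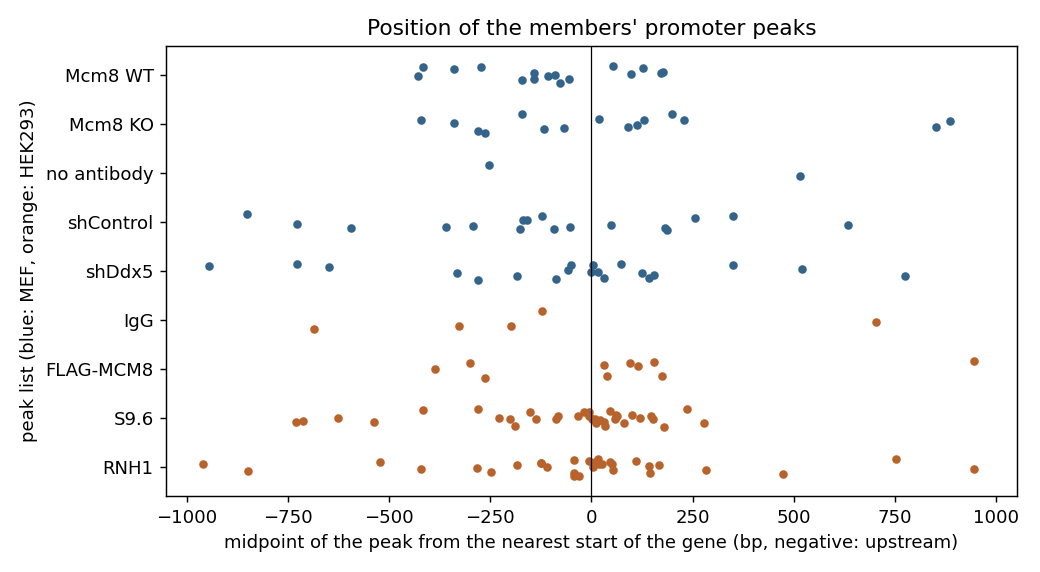
Each point is a promoter peak of a member, placed by the distance in bp of its midpoint from the nearest start site of that gene (negative values are upstream), with 1 line per list (MEF in blue, HEK293 in orange). Points gather around 0, and 31 of the 36 HEK293 S9.6 peaks lie within 300 bp.

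The 7 members with a promoter peak in all 4 MEF S9.6 lists (14.6%; background 4.19%) were Fancc, Xrcc3, Rad52, Atm, Slx4, Gen1 and Rmi1. They act at different steps, with a core complex subunit, a strand exchange factor, a strand-annealing protein, the kinase that responds to breaks, a nuclease scaffold, a Holliday junction resolvase and a subunit of the dissolvasome. At least 1 of the 4 lists held 27 members (56.2%; background 33.9%). Another 4 members (Fance, Blm, Chek2 and Mus81) were in 3 of the 4 lists.

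Fancc had the strongest member peak of the MEF data (KO, chr13:63430895-63431579). Its fold enrichment was 5.6 in WT against 7.08 in KO, and 4.68 in shControl against 7.03 in shDdx5. The peak was over the non-coding part of exon 1, and it was higher in both perturbed cultures than in their partners. Slx4, the scaffold that gathers nucleases at branched DNA, gave 3.81 in WT against 6.24 in KO, and 4.76 in shControl against 4.82 in shDdx5. Its KO value stood above the other 3. The Slx4 peak lay over exon 1 of another transcript, 2.14 to 2.23 kb upstream of the main start.

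Rmi1, which shares its promoter with Hnrnpk, gave 6.0 in WT against 4.06 in KO, and 4.88 in shControl against 4.81 in shDdx5, so that here the KO value was the lowest. Atm, which shares its promoter with Npat, gave 4.39, 5.07, 5.05 and 4.71 in the same order, and Gen1, which starts beside Smc6, gave 3.14, 4.54, 3.68 and 4.1. At these 3 genes a peak cannot be assigned to one of the neighbours. Rad52 gave fold values of 3.74, 4.61, 3.06 and 4.96, with the higher value of each pair in the perturbed culture. Xrcc3, which starts near Zfyve21, gave 3.57, 2.66, 3.48 and 4.16, with its lowest value in KO.

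**Figure D4:**
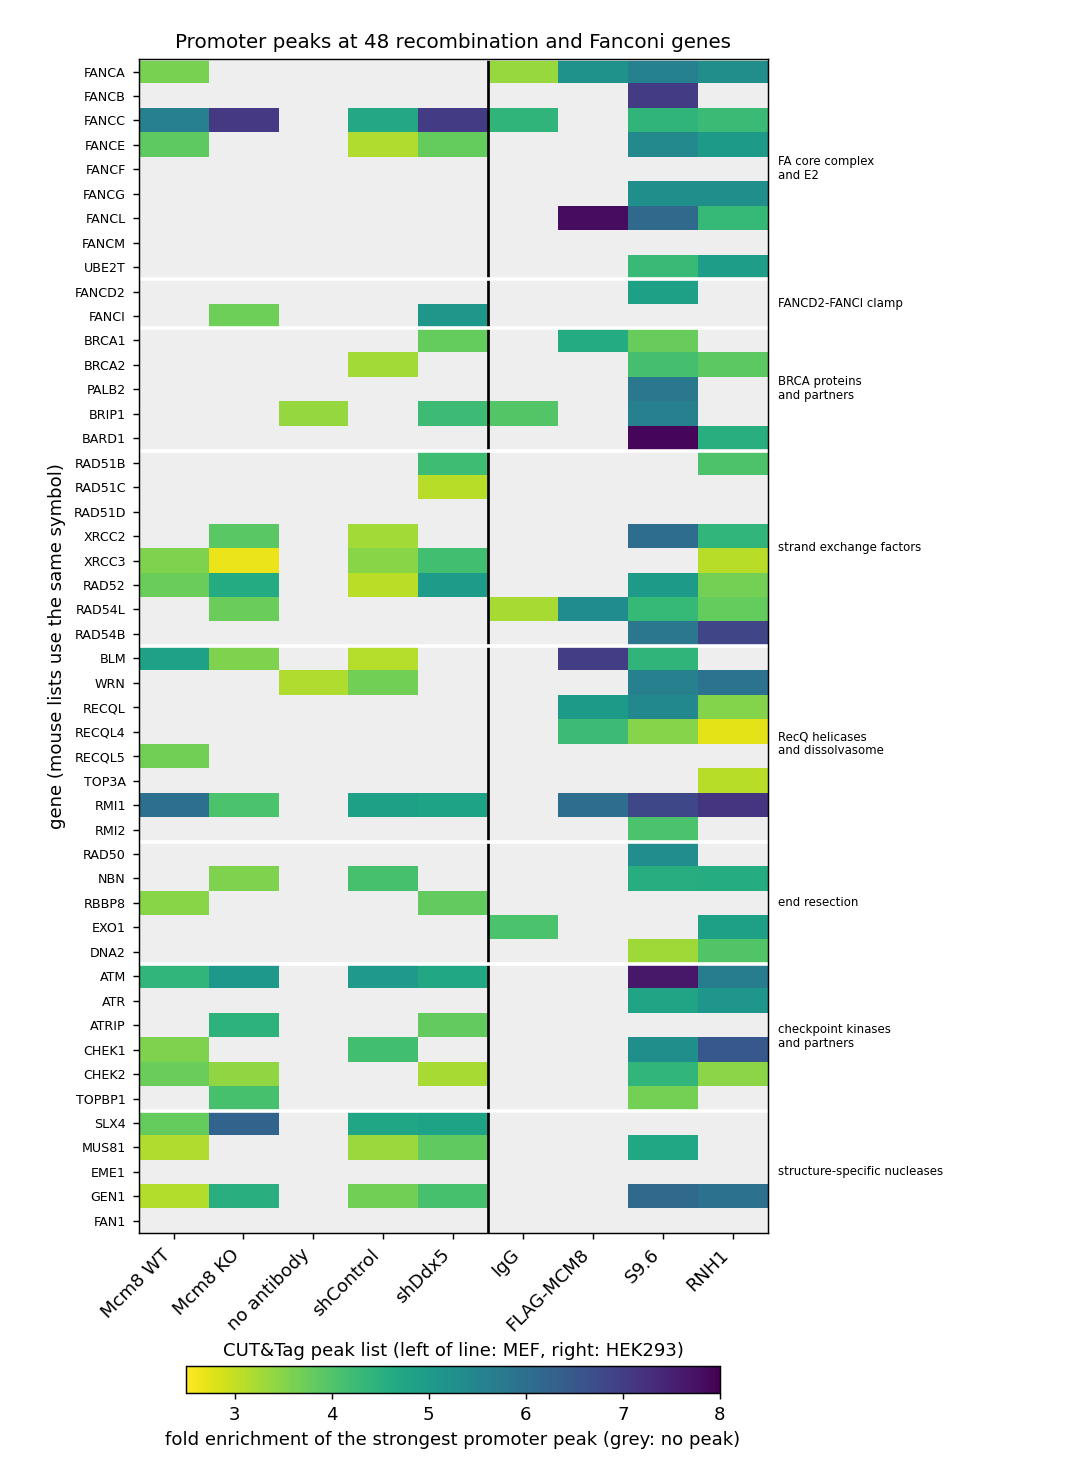
Each cell shows the fold enrichment of the strongest promoter peak of a gene (row, grouped by role) in a peak list (column, MEF left of the black line, HEK293 right), and grey cells have no peak. The HEK293 S9.6 column is the fullest with 33 genes, and Fancc, Xrcc3, Rad52, Atm, Rmi1, Slx4 and Gen1 are coloured in all 4 MEF S9.6 columns.

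The comparison of KO with WT asked whether R-loop peaks at these genes differ without MCM8. Both lists had a promoter peak at 9 members (background 6.66%), KO alone at 6 (12.5%; background 9.38%) and WT alone at 6 (background 4.66%). The 2 peaks shared bases at all 9. Of the 9, 5 had the higher fold in KO and 4 in WT, with a median KO to WT ratio of 1.16, beside 1.06 over 1460 genes. Over all genes 2057 were in KO alone and 1023 in WT alone. The equal numbers of members did not hold at every threshold: with a fold of at least 4, 5 members were in KO alone and 1 in WT alone, beside 991 and 435 of all genes. With q of 0.05 or lower the members numbered 5 and 6, beside 1307 and 545.

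The 6 members with a peak in KO alone were Atrip, Rad54l, Topbp1, Fanci, Xrcc2 and Nbn. Atrip, the partner that brings the kinase ATR to single-stranded DNA, was the strongest of them (chr9:109073549-109074329, exon 1, fold 4.44, pileup 13). Topbp1, an activator of ATR, gave 4.1, but its peak lay 28.4 kb inside the gene at another start site. Xrcc2 (3.9), Rad54l (3.74), Fanci (3.71) and Nbn (3.57) rested on pileups of 8 to 10 fragments, where the weakest KO peak anywhere had 6. Rad54l, a motor protein of recombination, starts beside Pomgnt1.

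The 6 members with a peak in WT alone were Fance, Fanca, Recql5, Chek1, Rbbp8 and Mus81. Fance, a core complex subunit, was the strongest by q (fold 3.86, pileup 18). Recql5 (3.68), Fanca (3.61), Chek1 (3.56), Rbbp8 (3.48) and Mus81 (3.16) followed. The Recql5 and Rbbp8 peaks lay at other start sites, 6.22 and 24.5 kb from the main starts. None of the 6 reached a fold of 4, and Chek1 and Rbbp8 had pileups of 8 fragments, where the weakest WT peak anywhere had 7. A missing peak says that the call was not made, and the signal below the threshold was not measured here.

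The comparison of shDdx5 with shControl asked the same for DDX5, an RNA helicase that resolves R-loops. Both lists had a promoter peak at 9 members (background 9.77%), shDdx5 alone at 8 (16.7%; background 13.3%) and shControl alone at 6 (12.5%; background 4.97%). At all 9 the peaks shared bases, and 7 of them were higher in shDdx5, with a median ratio of 1.16 beside 1.12 over 2144 genes. In the shDdx5 list 18 of 20 member promoter peaks passed q 0.05, and in the shControl list 8 of 17. Of all peaks in these lists, at promoters or elsewhere, 60.5% and 28.1% did, which is an unlike basis. Counted by gene at promoters, 15 of 17 members and 4080 of 5068 genes kept a peak at q 0.05 in shDdx5. In shControl 8 of 15 members and 1686 of 3234 genes did.

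In shDdx5 alone the peaks were at Fanci, Brip1, Rad51b, Atrip, Rbbp8, Brca1, Chek2 and Rad51c. Fanci, the partner of FANCD2 in the ubiquitinated clamp, was the strongest (chr7:79392339-79392676, exon 1, fold 5.08, pileup 14). Brip1, a helicase bound by BRCA1, gave 4.24, and its peak shared bases with a peak of the no-antibody list. Rad51b gave 4.2 at 944 bp upstream of a start, near Zfyve26, and Brca1 gave 3.79 at 647 bp upstream, near Nbr1. The remaining 4 had folds from 3.09 in Rad51c to 3.82 in Atrip and Rbbp8, with the Rbbp8 peak 24.3 kb from the main start. The shControl list alone had Chek1 (4.16), Nbn (4.09), Wrn (3.68), Brca2 (3.27), Xrcc2 (3.27) and Blm (3.11). Brca2, a mediator of recombination, had this single MEF peak 43.2 kb inside the gene, and its q did not pass 0.05. The Blm value came from a peak 73.7 kb inside the gene, and its other peak (3.02) lay 0.754 kb from the main start. Within this group Xrcc2, Brca2 and Blm rested on pileups of at most 7 fragments.

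Only 2 members, Fanci and Atrip, had a promoter peak in KO and shDdx5 and in neither of their partners (4.17%; background 2.95%). At Fanci the fold was 3.71 in KO and 5.08 in shDdx5, and at Atrip the highest fold was 4.44 and 3.82. Fanci lies on mouse chromosome 7, where 13% of genes in the KO list and 13.6% in the shDdx5 list had a promoter peak, beside 16.3% and 24.1% elsewhere.

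In HEK293 cells the S9.6 list was compared with the RNH1 list, since RNase H1 removes hybrids. Both had a promoter peak at 23 members (47.9%; background 17.5%), S9.6 alone at 10 (20.8%; background 12.6%) and RNH1 alone at 4 (8.33%; background 7.18%). At all 23 the peaks shared bases. The fold was higher in S9.6 at 15 and in RNH1 at 8, with a median ratio of 1.06, beside 1.08 over 3496 genes. S9.6 was thus the higher of the 2 lists at 65.2% of these members and at 64.2% of these genes.

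BARD1, the partner of BRCA1, had the strongest member peak of the S9.6 list (chr2:214809639-214810186, fold 7.93, pileup 40) and 4.53 in the RNH1 list (pileup 16). ATM gave 7.64 and 5.66, XRCC2 6.03 and 4.38, FANCL 6.1 and 4.32, and RECQL 5.43 and 3.51. In the other direction RAD54B gave 5.82 in S9.6 and 6.86 in RNH1, CHEK1 5.25 and 6.48, and RMI1 6.8 and 7.15. The direction differed from gene to gene within one repair step, as RAD54B and XRCC2 show.

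The 10 members in S9.6 alone were FANCB, PALB2, BRIP1, RAD50, MUS81, FANCD2, RMI2, BLM, BRCA1 and TOPBP1. FANCB, a core complex subunit, was the strongest by fold (7.02, pileup 22), and MUS81, a nuclease subunit, by q (fold 4.7, pileup 48). PALB2, which links BRCA1 to BRCA2, gave 5.8, BRIP1 5.6 and RAD50, part of the end-resection complex, 5.31. The MUS81 peak lay near the start of CFL1, that of FANCB near MOSPD2 and that of PALB2 near DCTN5. The FANCD2, BRCA1 and RMI2 peaks lay 53.9, 45.6 and 32.7 kb from the main starts. The 4 members in RNH1 alone were EXO1 (4.88), RAD51B (4.03), XRCC3 (3.1) and TOP3A (3.09). All but EXO1 lay at least 522 bp from the nearest start. The RAD51B peak lay 180 kb and the XRCC3 peak 1.99 kb from the main starts.

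FLAG-MCM8 and S9.6 were compared to ask whether MCM8 lies at the same promoters as R-loops. All 8 members with a FLAG-MCM8 promoter peak also had an S9.6 one (16.7%; background 7.39%), and 0 had FLAG-MCM8 without S9.6 (background 4.62%). Over all genes, 2405 had a FLAG-MCM8 promoter peak, and 1480 of them an S9.6 one too. An S9.6 peak was present at 68.8% of members and at 30.1% of all genes. Whether FLAG-MCM8 and S9.6 coincide beyond these shares was not tested. A count of 0 of 48 allows a share of up to 6.25% by a floor of 3 counts and of up to 7.41% by the Wilson interval, and both ranges include the background. The peaks shared bases at 5 of the 8: BLM, RMI1, RAD54L, FANCA and RECQL. The other 3 had both peaks but at different places.

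FANCL, the ubiquitin ligase of the core complex, had the strongest FLAG-MCM8 member peak (chr2:58171771-58172154, fold 7.82), in an intron 69.4 kb from the main start, while its S9.6 peak (6.1) lay at the main start. At BLM, the helicase of the dissolvasome, FLAG-MCM8 gave 7.0 (chr15:90717420-90717697, exon 1) and S9.6 gave 4.41. At RMI1, its partner, the values were 6.04 and 6.8. RAD54L gave 5.33 and 4.32, and FANCA gave 5.2 and 5.59. RECQL had 2 FLAG-MCM8 peaks, of 5.0 and 4.75, inside a single S9.6 peak of 5.43. BRCA1 had FLAG-MCM8 peaks of 4.62 within 1 kb of its main start and of 4.5 beside NBR1, and its S9.6 peak (3.77) lay 45.6 kb upstream of the main start. At RECQL4 the values were 4.22 and 3.49. Of these 8, RMI1 is the member that also had a promoter peak in all 4 MEF S9.6 lists.

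An IgG promoter peak was counted at 2 of these 8 members, RAD54L (fold 3.23) and FANCA (3.34), and neither shared a base with the FLAG-MCM8 peak. At FANCA the 2 peaks were at different starts, with IgG 77.6 kb and FLAG-MCM8 0.216 kb from the main start. At FANCC (4.41), BRIP1 (3.97) and EXO1 (4.05) the IgG list had peaks where FLAG-MCM8 had none. The 4 members with both an IgG and an S9.6 peak had them at different places. In the RNH1 list 1 FANCA peak (3.15) shared bases with an IgG peak. FLAG-MCM8 peaks were found at 7 of the 24 members with an E2F match at the main start and at 1 of the 24 without, where 14.4% and 11.8% of all genes had one. IgG peaks were at 5 and 0 members, beside 6.86% and 5.55% of all genes, and S9.6 peaks at 18 and 15, beside 39.3% and 28.9%. Here and in the MEF counts below, the match was at the main start and the peak at any start. Among members with a match, IgG peaks of FANCA and FANCC lay 77.6 and 181 kb from the main start. The FLAG-MCM8 peak of FANCL lay 69.4 kb away, and S9.6 peaks of FANCD2, BRCA1 and RMI2 53.9, 45.6 and 32.7 kb. RECQL4, without a match, had FLAG-MCM8 and S9.6 peaks 2.13 and 5.07 kb away. At main starts only, IgG had 3 members, FLAG-MCM8 6 and S9.6 29. In MEFs the members with a match had the lower share: 18.2% of 22 against 42.3% of 26 in WT, 22.7% against 38.5% in KO, 27.3% against 34.6% in shControl and 27.3% against 42.3% in shDdx5. Over all genes the share was the higher one with a match in these 4 lists, at 17.2% against 10.7% in WT and 36.7% against 21.5% in shDdx5. None of these differences was tested.

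**Figure D5:**
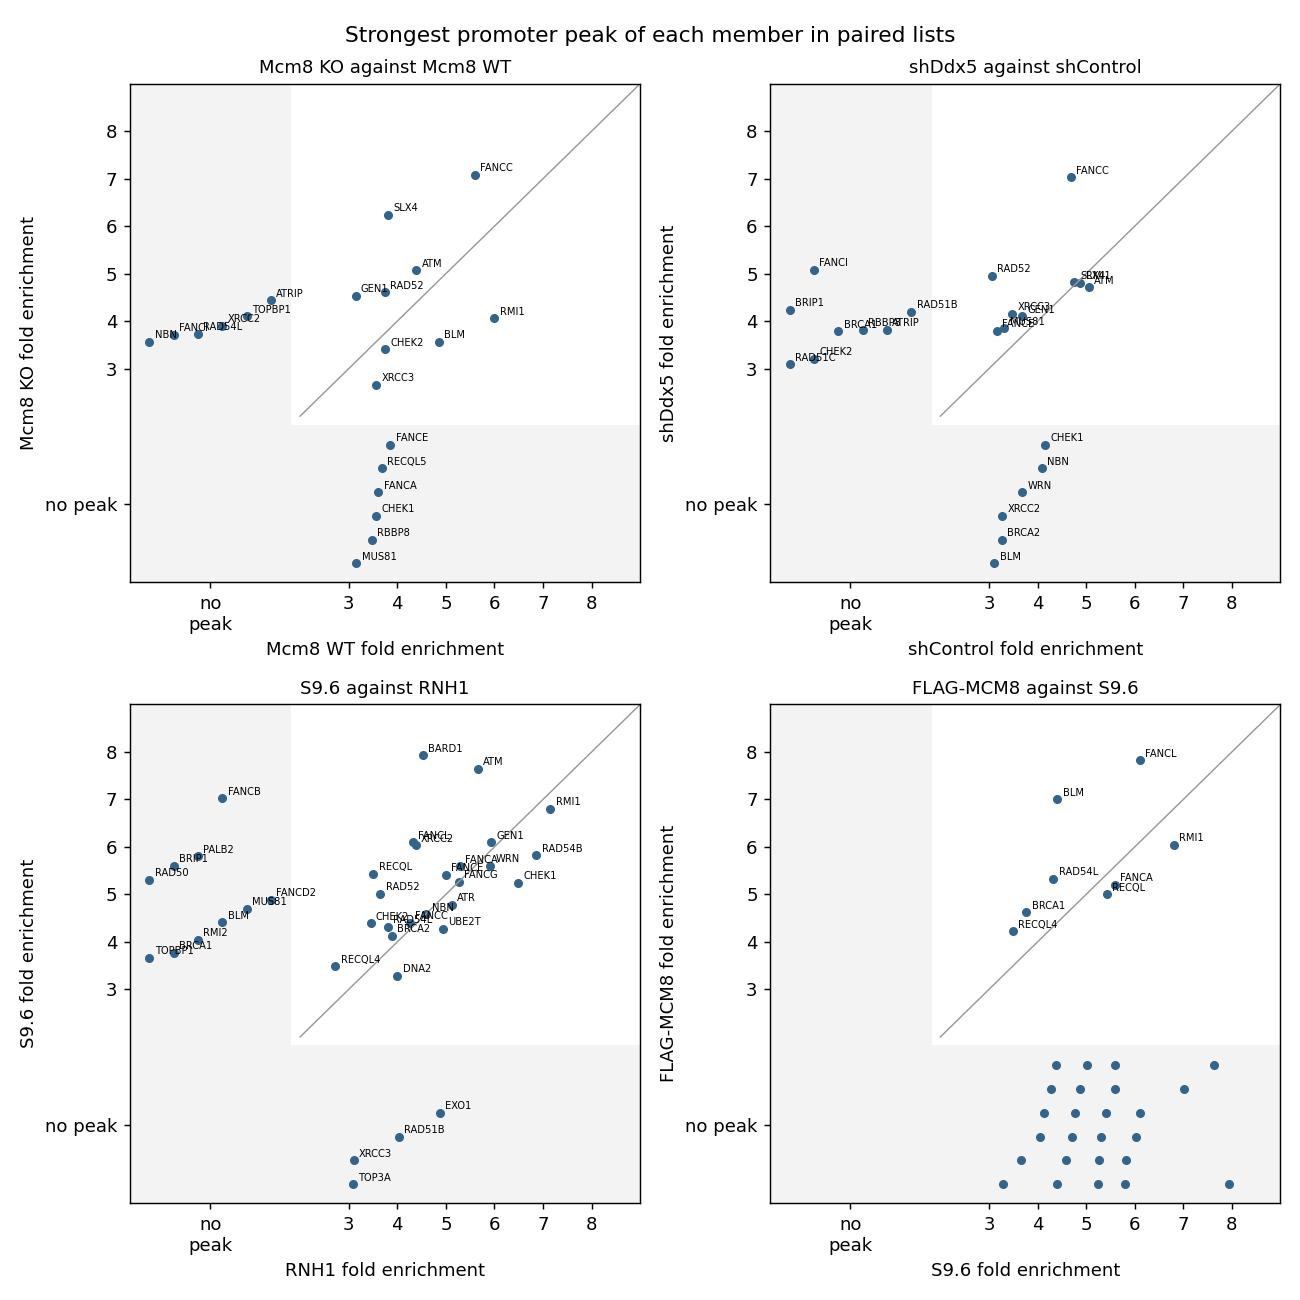
Each panel plots the fold enrichment of a member's strongest promoter peak in one list against that in its paired list, and points in the grey bands have no peak in one of the lists (their place across the band carries no value). BARD1 stands far above the diagonal in the S9.6 panel (7.93 against 4.53), and the lower right panel has no point in its left band, since 0 members had FLAG-MCM8 without S9.6.

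By role, the BRCA group was the only one of the 8 whose members all had a promoter peak in a single list. All 5 (BRCA1, BRCA2, PALB2, BRIP1 and BARD1) had an S9.6 promoter peak in HEK293 cells, and 2 kept one with RNH1. An S9.6 peak was present at 68.8% of the 48 members and 30.1% of all genes, and an RNH1 peak at 56.2% and 24.6%. BRCA1 counted only through a peak (fold 3.77) 45.6 kb upstream of its main start, beside NBR1, and had no S9.6 peak at the main start. In MEFs none of the 5 had a peak in WT or KO, 1 had one in shControl and 2 in shDdx5. The structure-specific nucleases, which cut branched molecules, numbered 3 of 5 in WT, shControl and shDdx5, 2 in KO, 2 in HEK293 S9.6 and 1 in RNH1. The thresholds of the 2 sets of lists differ, so these counts are given side by side.

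The all-gene shares just given apply to the following roles too. Of the 9 core complex members with UBE2T, the E2 that works with FANCL, 7 had an S9.6 and 6 an RNH1 peak in HEK293 cells. In MEFs 3 had one in WT and 1 in KO. UBE2T itself gave 4.27 and 4.94. FANCG, another subunit, gave 5.27 and 5.26, nearly the same value. Of the 8 strand exchange factors (RAD51B, RAD51C, RAD51D, XRCC2, XRCC3, RAD52, RAD54L and RAD54B), 4 had an S9.6 and 6 an RNH1 peak, 2 were in WT and 4 in KO. The 8 RecQ helicases and dissolvasome subunits numbered 6 in S9.6, 5 in RNH1 and 4 in FLAG-MCM8 (12% of all genes), where no other role had more than 2. Among these 4, RECQL4 had its FLAG-MCM8 peak 2.13 kb from the main start, with no base shared with its S9.6 peak. The roles were grouped with earlier results of these data known, and no role count, here or for the BRCA group, was tested. WRN, the helicase lost in Werner syndrome, gave 5.6 and 5.91. Among the 5 end-resection members 3 had an S9.6 peak. NBN, which brings the complex to breaks, gave 4.58 and 4.6, and DNA2, a nuclease, gave 3.28 and 4.0. Of the 6 checkpoint members 5 had an S9.6 peak and 4 an RNH1 peak. ATR gave 4.78 and 5.12, and CHEK2 gave 4.39 and 3.45.

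In 5 members no promoter peak was found in any of the 9 lists: FANCF, FANCM, RAD51D, EME1 and FAN1. FANCM is the translocase that anchors the core complex, RAD51D a strand exchange factor, EME1 the partner of MUS81 and FAN1 a nuclease of crosslink repair. FANCM had a peak outside the 1 kb limit in every S9.6 list. In HEK293 cells its nearest peak midpoint lay 1375 bp from a start with S9.6 (fold 6.4) and 1292 bp with RNH1 (5.82). In MEFs the distance was 1748 bp in WT (4.81), 1836 bp in KO (6.87), 1778 bp in shControl (6.5) and 1890 bp in shDdx5 (4.94), so that the fold was higher in KO than in WT and lower in shDdx5 than in shControl. The other members with a nearest peak within 1.5 kb but outside the limit were Rad50 without antibody (1074 bp), RECQL5 and XRCC3 in HEK293 S9.6 (1181 and 1446 bp) and FANCD2 in IgG (1334 bp). Just inside it were RAD51B in RNH1 (959 bp), FANCL in FLAG-MCM8 (945 bp), and XRCC3 in RNH1 and Rad51b in shDdx5 (944 bp both). FANCF and FAN1 lie on mouse chromosome 7. In the WT and KO lists 6.4% and 5.99% of peaks were on this chromosome, and in shControl and shDdx5 3.31% and 3.42%.

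Peaks in MEFs and in HEK293 cells were set side by side gene by gene. Of the 27 members in at least 1 MEF S9.6 list 70.4% had an S9.6 peak in HEK293 cells, and of those in none 66.7% had one. Over 15742 genes with the same symbol in both species these shares were 49.8% and 20.8%. Both species together had 19 members, HEK293 cells alone 14, MEFs alone 8, and neither 7. Of the 7 members in all 4 MEF lists, 5 had an S9.6 promoter peak in HEK293 cells (71.4%), with Slx4 and Xrcc3 as the exceptions, and of all genes in these 4 lists 72.9% had one.

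Peaks anywhere over the gene body were counted as well. They were found at 15 members in WT (background 16.9%), 13 in KO (background 23%), 3 without antibody (background 7.51%), 18 in shControl (background 24.7%) and 20 in shDdx5 (background 29.4%). As percentages of the 48 these were 31.2%, 27.1%, 6.25%, 37.5% and 41.7%. In HEK293 cells 12 members had a gene-body peak with IgG (25.0%; background 25.4%), 12 with FLAG-MCM8 (25.0%; background 25.9%), 36 with S9.6 (75.0%; background 39.2%) and 26 with RNH1 (54.2%; background 33%). The members' share was close to the background for IgG and FLAG-MCM8 and above it for S9.6.

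With peaks at a gene's own start sites left out, 10 members still had a gene-body peak with S9.6 in HEK293 cells (20.8%, beside 19.5% of all genes), 9 with RNH1 (18.8%, beside 16.7%), 9 with IgG (18.8%, beside 22.1%) and 7 with FLAG-MCM8 (14.6%, beside 18.4%). In MEFs 3 remained in WT and 3 in KO (6.25%, beside 8.81% and 12.2%), 7 in shControl (14.6%, beside 15.6%) and 8 in shDdx5 (16.7%, beside 13.1%). Per Mb of gene these remaining peaks numbered 4.86 in members and 4.24 in all genes with S9.6, 3.47 and 3.53 with RNH1, 4.17 and 5.5 with IgG, and 2.78 and 4.09 with FLAG-MCM8. In MEFs they numbered 1.11 and 2.36 in WT, 1.84 and 3.56 in KO, 5.53 and 4.76 in shControl, and 4.06 and 3.82 in shDdx5. The median member was 56.4 kb long in human and 34.4 kb in mouse, beside 27.5 and 17.4 kb over all genes.

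A few genes held many gene-body peaks. Over the 4 MEF S9.6 lists Rad51b (517 kb) had 12 and Fancc (212 kb) 11, and Rad52, Blm and Rbbp8 had 4 each. Of the Rad51b peaks 7 were in shControl, 3 in KO, 2 in shDdx5 and 0 in WT. Over the 3 HEK293 antibody lists FANCC had 16, FANCA 14 and RAD51B 7. In the IgG list FANCC had 9 peaks, more than the 7 in S9.6, 5 in FLAG-MCM8 and 4 in RNH1, so that its gene-body count was not above the control. FANCA had 1 in IgG, 5 in S9.6, 7 in RNH1 and 2 in FLAG-MCM8.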

How the data were processed

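Per the labels and the study's methods, reads were trimmed with Trimmomatic, aligned with Bowtie2 to mm10 (MEF) or hg38 (HEK293), and peaks were called by the authors with MACS2, 2.1.2 in the submitters' processing notes, each library alone and in MEFs without the no-antibody track as input. The deposited narrowPeak lists give for each peak the fold enrichment (a ratio), -log10 p, -log10 q, an integer score and the summit offset. No counts or read totals were used, so depth is known only relatively: the pileup and local background of each peak were solved from fold and -log10 p (tolerance 0.002; 100% of peaks with -log10 p under 250). The precision this depth gives is limited, since weak MEF peaks rest on 6 or 7 fragments.

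From these lists promoter peaks (midpoint within 1 kb of any start site; GENCODE 44 for human, M21 for mouse) and gene-body peaks (at least 1 bp) were counted for members and for all protein-coding genes, on the nuclear chromosomes, with Python 3.11.15, pandas 2.3.3, pysam 0.24.0 and samtools 1.23.1. Each group had 1 library, so no p-value was computed. Wilson and Newcombe 95% intervals cover counting error only. The window assignment and the pileup solution were tested on simulated data.

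The members and gene lists were chosen with earlier results of these data known. Genes were named by rule: those in at least 3 of the 4 MEF S9.6 lists, up to 8 on each side of a pair by -log10 q, up to 12 with FLAG-MCM8 and S9.6, all in a control list or in no list, the 3 with the most gene-body peaks per species, and at least 2 per role. Alternatives were q of 0.05, fold of 4, a 3 kb window, any base within 1 kb, protein-coding transcripts only, control-overlapping peaks left out, equal numbers of strongest peaks (6481 in MEF, 12497 in HEK293) and, added after seeing the data, 1 main start per gene. The printed sequences were read by coordinates from the RefSeq copy of the mm10 genome and from the hg38 genome.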

Additional observations from a re-analysis of the deposited data

Results flagged for a closer look

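Between the pairs of MEF lists some members moved in opposite ways. A promoter peak was present in KO and absent in WT, and absent in shDdx5 and present in shControl, at 2 members, Xrcc2 and Nbn (4.17%; 0.789% of all genes did the same). The reverse, absent in KO and present in WT, and present in shDdx5 and absent in shControl, was seen at 1 member, Rbbp8 (2.08%; 1.43% of all genes). Each group is 1 library and the difference between the pairs was not tested. The peaks at Xrcc2, Nbn and Rbbp8 rested on pileups of 6 to 12 fragments. Those at Rbbp8 lay 24.5 kb (WT) and 24.3 kb (shDdx5) from the main start. At Xrcc2 the KO peak shared no base with either shControl peak, so these were different sites of the gene. Fanci and Atrip had peaks in both perturbed cultures alone (4.17%, beside 2.95% of all genes). Chek1 had them in both control cultures alone (2.08%, beside 0.365%), but its WT and shControl peaks shared no base. Each share rests on 1 or 2 members.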

How the results depend on the processing

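Of 142 counts recomputed under an alternative, 114 stayed within 1.5 times the reported count and 28 did not. With a fold of at least 4, promoter peaks remained at 4 members in WT, 8 in KO, 6 in shControl, 10 in shDdx5, 2 in IgG and 0 without antibody, and the members in WT alone fell to 1, in shControl alone to 2 and in RNH1 alone to 2. With q of 0.05 or lower, shControl had 8 members, the no-antibody list 0 and shControl alone 2, and gene-body peaks were at 9 members in WT, 8 in shControl and 0 without antibody. With a 3 kb window the no-antibody list had 4. With protein-coding transcripts only the IgG list had 3. With equal numbers of strongest peaks shControl alone had 3. With the main start only, IgG had 3 members, RNH1 alone 2 and both FLAG-MCM8 and S9.6 5. With peaks near a gene's own starts left out, gene-body peaks were at 3 members in WT and in KO, 7 in shControl, 8 in shDdx5, 7 with FLAG-MCM8, 10 with S9.6 and 9 with RNH1. These settings remove peaks, starts or parts of the gene, or widen the window, by construction. The control lists have no value without control-overlapping peaks or at equal numbers. The HEK293 S9.6 count ranged from 29 to 36 and the RNH1 count from 18 to 29. No paired analysis was possible because each group is 1 library and no result comes from a test. The number of fragments under a MEF peak limits what these lists can show.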
